A study of Mus musculus with 10 samples.

Results

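Immediate early response genes were followed in the left ventricle of mice with a model of heart failure with preserved ejection fraction (HFpEF). The 34 members were chosen by symbol from a given list of transcription factors, phosphatases and other first-wave response genes, and all 34 were found among the 55385 genes of the deposited table. RNA was sequenced from 2 groups of 5 left ventricle libraries from C56Bl6 mice, as the labels spell the strain. For 6 weeks the HFpEF mice ate a high-fat diet and received L-NAME, which blocks nitric oxide synthases. The Control group had received a standard diet over the same 6 weeks. The sources used here state neither age nor sex. The labels do not state whether libraries and mice correspond, so p-values speak only of the spread among these 10 libraries, part of which may be technical.

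Immediate early genes are transcribed within minutes of a stimulus, without new protein synthesis, from promoters on which factors such as CREB and serum response factor already sit. Their products form a first wave of transcription factors (AP-1, EGR, NR4A and KLF proteins) together with inhibitors that shut the same signals down, such as MAP kinase phosphatases and the RNA-decay factor tristetraprolin. In the heart they respond to stretch, adrenergic and hormonal stimulation and ischaemia, and their RNA is short-lived.

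Library totals lay between 31286355 and 33604554 counts in HFpEF and between 31555001 and 46108710 counts in Control (exact permutation test on the totals, two-sided p = 0.222), so Control 4 and Control 5 were the most deeply sequenced. Of the 10 cardiomyocyte markers all were detected, with summed levels of 78263 to 84347 CPM (counts scaled to library size) in HFpEF and 76233 to 81343 CPM in Control. Of these markers Tnnt2, cardiac troponin T, was lower in HFpEF without overlap (log2 fold change -0.22, adjusted p = 0.0185; also called by DESeq2 and voom), and DESeq2 alone called Ryr2 and Ttn higher. All members passed the filter on low counts and were tested among 18491 genes. Levels in CPM use TMM scaling. A log2 fold change sets HFpEF over Control and is given with its standard error (SE). A gene was called at an adjusted p below 0.05 over all genes tested.

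Promoter windows of RefSeq (build GRCm38.p6) existed for 27 of the 34 members. Sik1, Egr1, Egr3, Arc, Ier2, Myc and Klf10 had none, so the member shares below leave these 7 out. The 250 bases before the annotated start were searched on both strands for elements that receive the early signals. The cyclic AMP response element TGACGTCA (CRE) was in the windows of Btg2, Dusp1 and Maff, 3 of 27 members or 11.1%, against 1.77% of all 27025 genes with a window. Its core TGACG, which each full element also contains, was present for 16 of 27 members (59.3%) and 19.8% of all genes. The EGR site GCGNGGGCG was present for 11 members (40.7%) and 5.33% of all genes. The CArG box, bound by serum response factor, was present for Dusp5, Egr2 and Zfp36 (11.1%) and 1.62% of all genes. An AP-1 site (TGANTCA) was present for 1 member, Csrnp1 (3.70%), and 7.82% of all genes. TATAAA was present for 5 members (18.5%) and 14.3% of all genes. A match describes letters only, and no match says only that these letters are not in the window.

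The windows of the called members for which one existed are shown first, then those of Fos, Dusp1 and Dusp5, because they hold the CRE core, the full CRE and the CArG boxes. Capitals mark every match to the searched motifs, read 5′ to 3′ on the strand of the gene.
Gadd45g: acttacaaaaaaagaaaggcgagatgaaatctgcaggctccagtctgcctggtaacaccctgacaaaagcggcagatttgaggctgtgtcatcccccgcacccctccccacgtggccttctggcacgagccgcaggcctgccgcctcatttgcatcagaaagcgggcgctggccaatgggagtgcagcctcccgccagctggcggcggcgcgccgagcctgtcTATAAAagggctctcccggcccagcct
Gadd45b: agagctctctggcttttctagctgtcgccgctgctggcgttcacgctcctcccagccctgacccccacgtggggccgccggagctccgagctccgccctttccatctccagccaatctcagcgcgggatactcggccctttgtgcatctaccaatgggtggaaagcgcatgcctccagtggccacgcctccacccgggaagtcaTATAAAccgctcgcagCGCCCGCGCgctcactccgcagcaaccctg
Btg2: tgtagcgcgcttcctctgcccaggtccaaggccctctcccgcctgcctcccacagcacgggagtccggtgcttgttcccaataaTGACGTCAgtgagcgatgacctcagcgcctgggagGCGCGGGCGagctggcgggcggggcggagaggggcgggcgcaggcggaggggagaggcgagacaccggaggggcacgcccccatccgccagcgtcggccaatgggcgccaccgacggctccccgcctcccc
Maff: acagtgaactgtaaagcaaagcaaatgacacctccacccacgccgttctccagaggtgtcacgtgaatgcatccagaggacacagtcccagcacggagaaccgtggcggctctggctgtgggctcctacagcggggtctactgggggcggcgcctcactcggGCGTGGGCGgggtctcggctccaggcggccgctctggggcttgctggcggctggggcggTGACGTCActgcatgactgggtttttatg
Ccn1: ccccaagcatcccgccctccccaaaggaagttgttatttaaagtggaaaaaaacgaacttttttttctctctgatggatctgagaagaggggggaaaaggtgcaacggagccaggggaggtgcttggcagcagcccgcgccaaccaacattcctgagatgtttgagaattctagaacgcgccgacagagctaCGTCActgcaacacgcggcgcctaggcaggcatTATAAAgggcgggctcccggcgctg
Fos: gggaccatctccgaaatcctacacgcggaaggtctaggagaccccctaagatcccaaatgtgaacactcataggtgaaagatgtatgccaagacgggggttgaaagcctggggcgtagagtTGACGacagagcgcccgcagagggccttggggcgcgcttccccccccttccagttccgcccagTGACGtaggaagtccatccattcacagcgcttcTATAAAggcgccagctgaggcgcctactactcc
Dusp1: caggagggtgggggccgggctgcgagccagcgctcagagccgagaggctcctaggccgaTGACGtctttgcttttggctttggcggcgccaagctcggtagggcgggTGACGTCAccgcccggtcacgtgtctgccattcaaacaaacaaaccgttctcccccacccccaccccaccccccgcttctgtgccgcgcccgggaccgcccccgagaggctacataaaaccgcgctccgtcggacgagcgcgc
Dusp5: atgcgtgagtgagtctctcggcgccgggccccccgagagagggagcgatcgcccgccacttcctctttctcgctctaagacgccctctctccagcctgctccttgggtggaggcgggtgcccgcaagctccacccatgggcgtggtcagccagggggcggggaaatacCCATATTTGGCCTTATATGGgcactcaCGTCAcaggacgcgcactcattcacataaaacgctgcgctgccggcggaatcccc

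In the window of Gadd45g (chr13:51846425-51846674, plus strand) the single match was a TATAAA 27 bases before the start. Gadd45b (chr10:80929841-80930090, plus strand) held TATAAA at 46 bases and, on the opposite strand, an EGR site at 30 bases before the start. Btg2 (chr1:134079156-134079405, minus strand) held a full CRE at 166 bases and an EGR site at 131 bases before the start. The Maff window with the CRE (chr15:79347270-79347519, plus strand), 1 of several starts of that gene, had it at 29 bases and an EGR site at 88 bases before the start. Ccn1 (chr3:145649986-145650235, minus strand) held a CRE core on the opposite strand at 58 bases and TATAAA at 25 bases before the start. Fos (chr12:85473640-85473889, plus strand) held CRE cores at 129 and 66 bases and TATAAA at 33 bases before the start. Dusp1 (chr17:26508473-26508722, minus strand) held a full CRE at 143 bases and a core at 191 bases, and Dusp5 (chr19:53528895-53529144, plus strand) held adjoining CArG boxes at 82 and 72 bases and, on the opposite strand, a CRE core at 55 bases before the start.

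Of the 34 members, 7 were higher in HFpEF, 0 were lower and 27 were not called. Over all genes tested 3.24% were called higher and 2.09% lower. The members called were the stress sensors Gadd45g and Gadd45b, the growth regulators Btg2 and Myc, the small Maf factor Maff, the kinase Sik1 and the matricellular gene Ccn1. The factors by which an early response is usually recognised, Fos, Egr1, Jun and Nr4a1, were not among them. Their log2 fold changes were -0.07 ± 0.38, 0.53 ± 0.35, 0.08 ± 0.15 and 0.31 ± 0.41 (SE). The SE of Fos, Egr1 and Nr4a1 was larger than that of any called member (at most 0.22). A missing call at such a spread does not show that a gene was unchanged. The median log2 fold change of the members was 0.28, against -0.01 over all genes tested. It was above 0 for 30 of 34 members, against 47.2% of all genes, and for 29 with upper quartile scaling, where Arc turned to -0.01. With DESeq2, 10 members were called higher and 0 lower, and with voom 7 and 0. The shares over all genes given here are those of edgeR, and none is given for DESeq2 or voom. DESeq2 also called more genes than edgeR in the lists outside the members, so its higher count is not particular to the members. In bulk tissue, fewer cells of a type and less RNA per cell cannot be told apart.

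**Figure D1:**
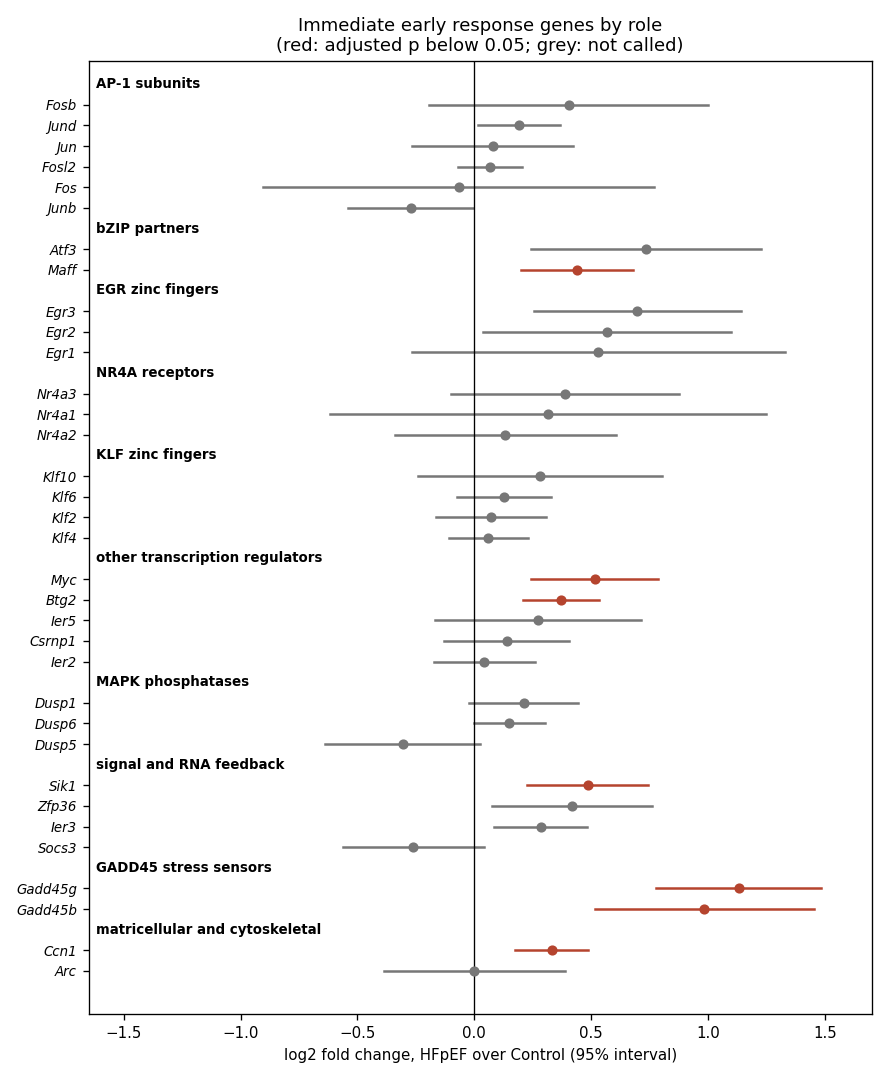
Log2 fold change, HFpEF over Control, of the 34 members grouped by role (points, with 95% intervals as lines); red marks members with an adjusted p below 0.05 and grey the others. The 7 red members lie between 0.33 and 1.13, and 30 of 34 points lie above 0.

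Every HFpEF library lay above every Control library for 5 members (Gadd45g, Gadd45b, Myc, Sik1 and Ccn1), against 3.88% of all genes tested, and 0 members had every HFpEF library below every Control library, against 2.93% of all genes. The lowest HFpEF library was only just above the highest Control library for Myc (1.96 against 1.89 CPM), Sik1 (33.84 against 33.76 CPM) and Ccn1 (27.8 against 27.5 CPM). At an unadjusted p below 0.05, 13 members were higher and 1 was lower in HFpEF, against 10.6% and 9.91% of all genes. The members also varied more between libraries of a group than most genes did. Their median within-group SD was 0.246 on the log2 CPM scale, against 0.158 for the 15892 genes in the same range of mean CPM. Values of low members rest on few counts, from 11 to 23 counts a library for Fosb in HFpEF.

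The GADD45 genes moved most. Their products are small proteins that bind and activate the kinase MAP3K4 upstream of p38 and JNK and take part in growth arrest and DNA repair. Gadd45g (ENSMUSG00000021453.2, mm10 chromosome 13, 51846678 to 51848468, plus strand) had 3.16, 2.18, 2.14, 2.73 and 2.84 CPM in HFpEF 1 to 5, against 1.10, 0.829, 1.54, 1.33 and 1.16 CPM in Control 1 to 5. The lowest HFpEF library stood above the highest Control library. Raw counts ran from 66 to 101 in HFpEF and from 28 to 59 in Control. Gadd45g averaged 2.61 ± 0.440 CPM in HFpEF and 1.19 ± 0.265 CPM in Control (SD, n = 5 each), and rose by 1.13 ± 0.17 on the log2 scale (SE; 95% interval 0.78 to 1.48; adjusted p = 0.00107). It was called in each of the 10 fits that left out 1 library, as were Btg2 and Ccn1.

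Gadd45b (ENSMUSG00000015312.9, chromosome 10, 80930073 to 80932204, plus strand) had 3.57, 3.12, 3.63, 4.33 and 4.57 CPM in HFpEF 1 to 5, against 1.31, 2.49, 2.29, 2.57 and 1.12 CPM in Control 1 to 5. The groups did not overlap, but Control 1 and Control 5 stood well below the other 3 Control libraries. Its log2 fold change was 0.98 ± 0.22 (SE; adjusted p = 0.0195), a fold of 1.98. The call ended without HFpEF 4 (adjusted p = 0.0517). The paralog Gadd45a belongs to a list of relatives of the members (20 genes tested, among them Btg1, Sik2 and Socs1), of which 0 were called by edgeR or voom, and 2 (Socs6 and Socs7) were called higher by DESeq2. At an unadjusted p below 0.05, 2 of these relatives were higher and 2 lower.

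**Figure D2:**
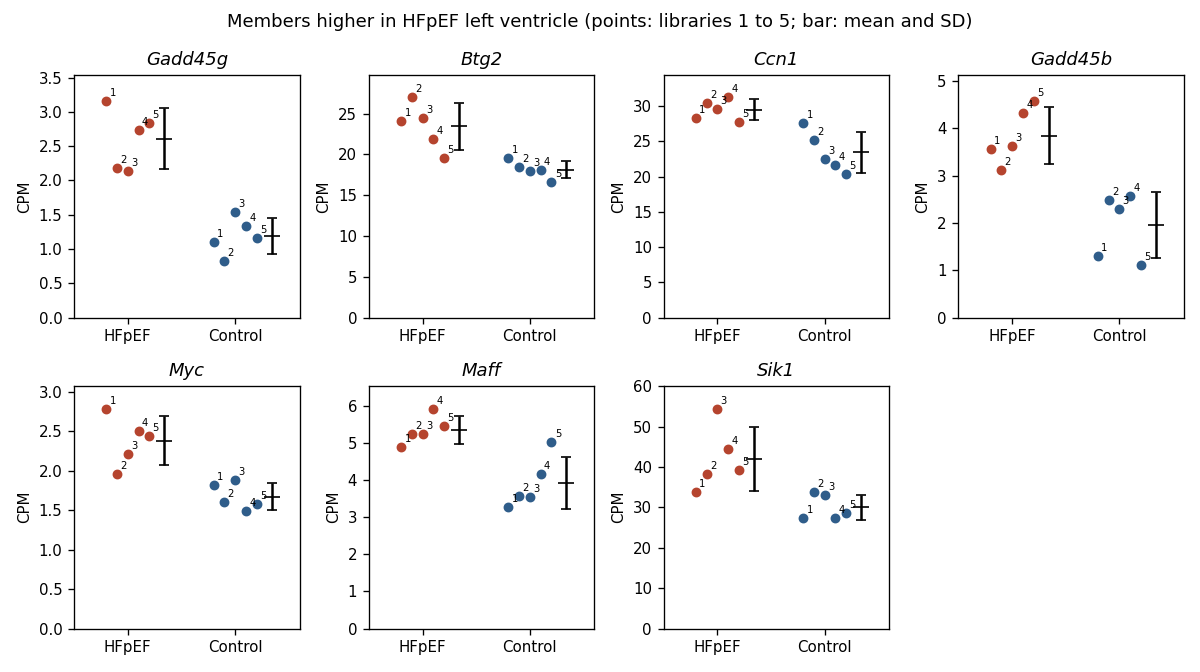
CPM of the 7 called members in each library (points, numbered 1 to 5 as labelled; the bar beside them is the mean with SD, 5 libraries a group). HFpEF and Control points are separate for Gadd45g and Gadd45b, narrowly separate for Myc, Sik1 and Ccn1, and overlap for Btg2 and Maff.

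Btg2, an antiproliferative protein that recruits the CCR4-NOT deadenylase to mRNA, had 24.1, 27.0, 24.5, 21.9 and 19.5 CPM in HFpEF, against 19.6, 18.4, 17.9, 18.0 and 16.7 CPM in Control. HFpEF 5 fell just inside the Control range. Btg2 rose by 0.37 ± 0.08 on the log2 scale (SE; adjusted p = 0.0112). Myc, the growth-promoting bHLH transcription factor, had 2.79, 1.96, 2.21, 2.50 and 2.44 CPM in HFpEF, against 1.81, 1.6, 1.89, 1.49 and 1.57 CPM in Control. HFpEF 2 stood just above Control 3, the highest Control library. Its log2 fold change was 0.51 ± 0.13 (adjusted p = 0.0290), and the call lasted in 3 of the 10 fits without 1 library (adjusted p up to 0.0688).

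Ccn1, a secreted integrin-binding matrix protein, had 28.2, 30.4, 29.6, 31.3 and 27.8 CPM in HFpEF, against 27.5, 25.2, 22.5, 21.6 and 20.4 CPM in Control. Control 1 almost reached the lowest HFpEF library. It rose by 0.33 ± 0.07 (SE; adjusted p = 0.0163) and was called in all 10 fits without 1 library, with adjusted p values up to 0.0464. Maff, a small Maf protein that has no activation domain of its own and pairs with other bZIP factors, had 4.88, 5.24, 5.26, 5.93 and 5.47 CPM in HFpEF, against 3.27, 3.58, 3.55, 4.15 and 5.02 CPM in Control. Control 5 reached into the HFpEF range. Its log2 fold change was 0.44 ± 0.11 (adjusted p = 0.0340), called in 3 of the 10 fits without 1 library (adjusted p up to 0.0875).

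Sik1, a salt-inducible kinase that phosphorylates CREB coactivators and class IIa histone deacetylases, had 33.8, 38.2, 54.3, 44.6 and 39.1 CPM in HFpEF, against 27.4, 33.8, 33.0, 27.4 and 28.6 CPM in Control. HFpEF 3 was the highest library, and HFpEF 1 stood next to the highest Control library. The log2 fold change was 0.49 ± 0.12 (SE; adjusted p = 0.0376), with a call in 4 of the 10 fits without 1 library (adjusted p up to 0.0892) and none without the filter on low counts (adjusted p = 0.118). Without Control 4 and Control 5 together, 3 members were called higher (Gadd45g, Gadd45b and Maff). Without HFpEF 4, 3 were called (Gadd45g, Btg2 and Ccn1). Without HFpEF 5, 7 were called, but with Egr3, Atf3 and Jund (adjusted p = 0.0405, 0.0234 and 0.045) beside Gadd45g, Gadd45b, Btg2 and Ccn1, and without Myc, Maff and Sik1.

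The AP-1 subunits, which pair as Fos and Jun proteins on AP-1 sites, counted 0 called of 6 by edgeR, DESeq2 and voom (1 higher and 1 lower at an unadjusted p below 0.05), with log2 fold changes from -0.27 to 0.40. Fos had 1.63, 2.43, 1.69, 1.6 and 0.711 CPM in HFpEF, against 3.06, 1.63, 1.92, 0.723 and 1.27 CPM in Control. The groups overlapped over nearly their whole range, and the highest library held 3.42 times the lowest in HFpEF and 4.24 times in Control. The log2 fold change of Fos was -0.07 ± 0.38 (SE; 95% interval -0.90 to 0.77; adjusted p = 0.946), an interval that leaves changes of either sign undetected at this spread, and the sign turned with voom (0.03) and without some single libraries. Jun had 39.9, 33.2, 34.5, 32.8 and 22.7 CPM in HFpEF, against 37.5, 27.0, 27.7, 26.4 and 35.8 CPM in Control (0.08 ± 0.15, adjusted p = 0.832). The lowest and the highest library of Jun were both in HFpEF.

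Junb had 5.54, 6.70, 6.13, 6.00 and 4.54 CPM in HFpEF, against 8.72, 6.55, 6.38, 5.53 and 7.77 CPM in Control. Its log2 fold change of -0.27 ± 0.13 missed the threshold (adjusted p = 0.236). Jund stood at 15.3 ± 1.80 CPM in HFpEF and 13.4 ± 1.06 CPM in Control (0.19 ± 0.08, adjusted p = 0.205); an opposite-strand gene, Gm11175, covers 52.6% of its exonic bases, and reads of both genes cannot be told apart without known strand. Fosl2, the most evenly expressed subunit, stood at 39.2 ± 3.69 CPM in HFpEF and 37.4 ± 2.13 CPM in Control (SD, n = 5 each), with a 95% interval of its log2 fold change from -0.07 to 0.20. Fosb was the lowest member, at 0.502 ± 0.148 CPM in HFpEF and 0.387 ± 0.124 CPM in Control. Atf3, a stress-induced bZIP repressor, had 3.88, 3.30, 2.43, 1.97 and 1.51 CPM in HFpEF, against 1.7, 1.45, 1.41, 1.29 and 1.99 CPM in Control. HFpEF 1 to 3 exceeded every Control library, while HFpEF 4 and 5 lay within the Control range. The log2 fold change of Atf3 was 0.73 ± 0.23 (adjusted p = 0.0830; called by DESeq2, adjusted p = 0.0318).

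The EGR zinc-finger factors counted 0 called of 3 by edgeR and voom (2 higher and 0 lower at an unadjusted p below 0.05) and 1, Egr3, by DESeq2. Their log2 fold changes were 0.53 to 0.70. Egr1 had 22.0, 20.6, 15.5, 12.0 and 10.4 CPM in HFpEF, against 21.2, 10.6, 7.01, 8.92 and 8.35 CPM in Control. Control 1 stood at the level of the highest HFpEF libraries and far above the other Control libraries. The log2 fold change of Egr1 was 0.53 ± 0.35 (SE; 95% interval -0.27 to 1.33; adjusted p = 0.445). Egr3 had 1.57, 1.53, 1.30, 1.23 and 0.896 CPM in HFpEF, against 0.893, 0.681, 0.566, 0.7 and 1.12 CPM in Control. HFpEF 1 to 4 stood above every Control library and HFpEF 5 lay inside the Control range (log2 fold change 0.70 ± 0.21, adjusted p = 0.0667; DESeq2 adjusted p = 0.0499). Egr2 stood at 0.630 ± 0.180 CPM in HFpEF and 0.424 ± 0.101 CPM in Control (adjusted p = 0.211).

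**Figure D3:**
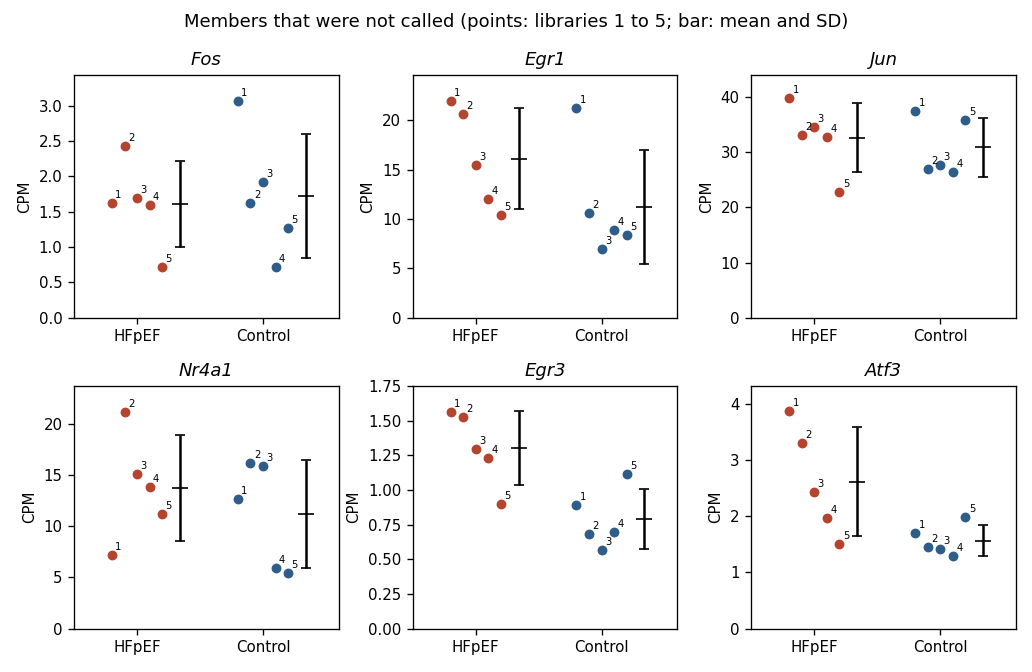
CPM in each library of 6 members that were not called (points, numbered 1 to 5 as labelled; bars, mean with SD, 5 libraries a group). HFpEF and Control points overlap in every panel; Control 1 stands apart for Egr1 at 21.2 CPM.

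The NR4A orphan nuclear receptors, induced by cyclic AMP and calcium signals, counted 0 called of 3 by edgeR, DESeq2 and voom, and 0 at an unadjusted p below 0.05. Nr4a1 had 7.17, 21.2, 15.1, 13.8 and 11.2 CPM in HFpEF, against 12.6, 16.1, 15.9, 5.89 and 5.38 CPM in Control. The highest library held 2.95 times the lowest in HFpEF and 3.00 times in Control. Its log2 fold change of 0.31 ± 0.41 (adjusted p = 0.731) turned to -0.12 without Control 4 and Control 5. Nr4a3 stood at 5.12 ± 1.71 CPM in HFpEF and 3.95 ± 0.902 CPM in Control (adjusted p = 0.363), with HFpEF 2 at 8.07 CPM. Nr4a2 stood at 1.18 ± 0.404 CPM in HFpEF and 1.07 ± 0.0779 CPM in Control (adjusted p = 0.792), and its lowest library, HFpEF 4, held 0.5 CPM.

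The KLF zinc-finger factors counted 0 called of 4 by edgeR, DESeq2 and voom, and 0 at an unadjusted p below 0.05, with log2 fold changes from 0.06 to 0.28. Klf2, a factor of endothelial cells that responds to shear stress, had 47.5, 44.97, 56.8, 61.7 and 54.3 CPM in HFpEF, against 46.9, 53.8, 59.1, 52.5 and 40.3 CPM in Control. The groups covered much the same range (0.07 ± 0.11, adjusted p = 0.767), and the value turned to -0.00392 without Control 4 and Control 5. Klf4 (0.06 ± 0.08) and Klf6 (0.13 ± 0.09) had 95% intervals from -0.11 to 0.23 and from -0.07 to 0.33. Klf10, induced by TGF-beta, had 19.9, 23.0, 14.5, 14.1 and 17.6 CPM in HFpEF, against 16.2, 16.2, 8.99, 11.4 and 20.3 CPM in Control (0.28 ± 0.23, adjusted p = 0.552). Among KLF factors outside the members, Klf11 rose by 0.57 ± 0.07 (adjusted p = 0.000347) and Klf13 by 0.34 ± 0.07 (adjusted p = 0.0115), 2 higher and 0 lower of 10 tested, as with DESeq2 and voom (4 higher and 0 lower at an unadjusted p below 0.05).

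Of the 3 MAP kinase phosphatases and 4 other feedback members, Sik1 alone was called by edgeR, and Zfp36 as well by DESeq2. Dusp1, a nuclear phosphatase of p38 and JNK, stood at 52.6 ± 7.05 CPM in HFpEF and 45.5 ± 6.31 CPM in Control (adjusted p = 0.300). Dusp6, the cytoplasmic phosphatase of ERK, stood at 18.7 ± 1.85 CPM in HFpEF and 16.8 ± 1.12 CPM in Control (adjusted p = 0.247). Dusp5, the nuclear ERK phosphatase, stood at 1.71 ± 0.360 CPM in HFpEF and 2.12 ± 0.267 CPM in Control (-0.31 ± 0.16, adjusted p = 0.287), with 22.1% of its exonic bases under an opposite-strand gene. Zfp36, which encodes tristetraprolin, had 30.4, 24.1, 36.7, 35.8 and 29.7 CPM in HFpEF, against 22.3, 20.6, 30.9, 25.4 and 18.3 CPM in Control. Control 3 stood above HFpEF 1, 2 and 5, so the groups overlapped (log2 fold change 0.42 ± 0.15, adjusted p = 0.159; DESeq2 adjusted p = 0.0316). Ier3 stood at 10.5 ± 1.36 CPM in HFpEF and 8.63 ± 0.911 CPM in Control (0.28 ± 0.09, adjusted p = 0.0922). Socs3, the feedback inhibitor of gp130 and STAT3 signalling, stood at 1.42 ± 0.166 CPM in HFpEF and 1.69 ± 0.242 CPM in Control (-0.26 ± 0.14, adjusted p = 0.319).

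The remaining members were not called. Ier5 stood at 15.7 ± 2.91 CPM in HFpEF and 12.9 ± 3.60 CPM in Control (adjusted p = 0.482), and Csrnp1 at 9.57 ± 1.61 CPM in HFpEF and 8.72 ± 1.29 CPM in Control (adjusted p = 0.583). Ier2 had a log2 fold change of 0.04 ± 0.10 (adjusted p = 0.863). Arc, a gene best known from neurons, stood at 1.80 ± 0.339 CPM in HFpEF and 1.78 ± 0.390 CPM in Control, with a 95% interval of its log2 fold change from -0.39 to 0.39.

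Per kilobase of exonic length, the members spanned a wide range of levels. Klf2 stood highest at 28.7 CPM per kb in HFpEF and 27.3 CPM per kb in Control, followed by Klf6 (16.1 and 14.8), Dusp1 (15.9 and 13.8) and Ccn1 (14.6 and 11.6 CPM per kb, HFpEF and Control in each case). Jun (10.2 and 9.68) and Klf4 (10.1 and 9.66 CPM per kb, HFpEF and Control in each case) followed. Among the called members, Gadd45b stood at 2.42 CPM per kb in HFpEF and 1.23 CPM per kb in Control, Gadd45g at 2.23 CPM per kb in HFpEF and 1.02 CPM per kb in Control, and Myc at 0.876 CPM per kb in HFpEF and 0.616 CPM per kb in Control. Fos, at 0.685 CPM per kb in HFpEF and 0.732 CPM per kb in Control, stood above 6 members in HFpEF and above 9 in Control, and Fosb was last at 0.0803 CPM per kb in HFpEF and 0.0621 CPM per kb in Control.

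Within the groups, some pairs of members had high correlations from library to library, but 0 passed adjustment in the permutation test given below. After the group mean of log2 CPM had been taken out, the first principal component of the 34 members held 36.0% of the variance of their scaled deviations. This share was not computed for other sets of genes. With only 10 libraries, unrelated genes would also place a sizeable share on a first component, so it does not by itself show co-variation. The 561 pairs of members had a median Pearson correlation of 0.11 over the 10 libraries, against -0.001 over all pairs of tested genes. Correlations above 0.7 were seen for 6.42% of member pairs and 2.97% of all pairs, and below -0.7 for 2.85% of member pairs and 2.83% of all pairs. Strongly opposed pairs, such as those named below, were thus about as common among members as among all genes. The values of a library share its depth, its scaling and its tissue piece.

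Egr3, Ier5, Jun and Atf3 were all highest in HFpEF 1 and lowest in HFpEF 5 within HFpEF. Within Control, Control 5 was the highest library for Egr3, Ier5 and Atf3 and Control 1 for Jun. Egr3 and Ier5 had a Pearson r of 0.972 and a Spearman rho of 0.976 over 10 libraries, with r of 0.959 within HFpEF and 0.986 within Control. Jun and Ier5 had a Pearson r of 0.880 and a Spearman rho of 0.915, and Atf3 and Egr3 a Pearson r of 0.843 and a Spearman rho of 0.855. Klf2, Csrnp1 and Zfp36 were all lowest in HFpEF 2 and Control 5 and highest in Control 3, with r of 0.893 for Klf2 and Csrnp1 (rho 0.891) and 0.893 for Csrnp1 and Zfp36 (rho 0.879). Klf10 ran against these 3, with r of -0.966 and rho of -0.891 to Zfp36 (-0.955 within HFpEF and -0.984 within Control). Without the 2 libraries farthest from the median of the first gene named, r was 0.953 for Egr3 and Ier5, 0.852 for Jun and Ier5, 0.784 for Atf3 and Egr3, 0.783 for Klf2 and Csrnp1, 0.776 for Csrnp1 and Zfp36, and -0.931 for Klf10 and Zfp36. Exact permutation p values of these 6 pairs lay between 0.000139 and 0.00438 for r and between 0.000278 and 0.00431 for rho (unadjusted). These pairs were named after all 561 had been computed. By exact permutation of libraries within each group (10 libraries, two-sided), 64 of the 561 pairs had an unadjusted p below 0.05 and 0 passed Benjamini-Hochberg adjustment over the 561 pairs. The smallest adjusted p, 0.0584, was shared by Egr3 with Ier5 (unadjusted p = 0.000139) and Atf3 with Ier5 (unadjusted p = 0.000208).

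**Figure D4:**
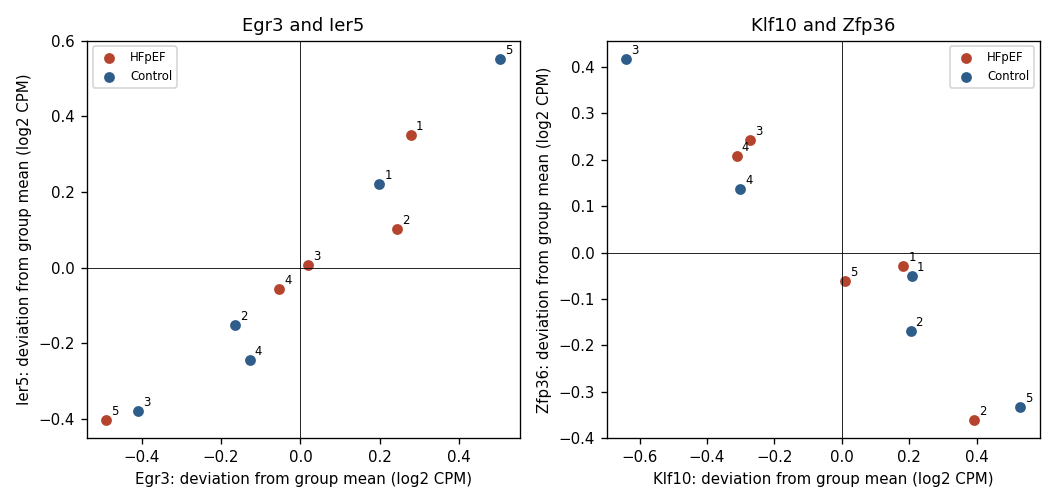
Deviation from the group mean, in log2 CPM, of Egr3 (x axis) and Ier5 (y axis) on the left and of Klf10 (x axis) and Zfp36 (y axis) on the right; each point is a library, numbered as labelled and coloured by group. Egr3 and Ier5 rise together over the 10 libraries (r = 0.972) and Klf10 and Zfp36 run in opposite directions (r = -0.966).

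The called members were also set beside other members and the first component. Gadd45b ran against Egr3 and Ier5, with r of -0.840 and rho of -0.830 to Egr3, and with r of -0.868 and rho of -0.855 to Ier5. Without the 2 libraries farthest from the median of the first gene, these were -0.802 for Egr3 and Gadd45b and -0.801 for Ier5 and Gadd45b; both adjusted p values over the 561 pairs missed the threshold (exact permutation, 0.174 and 0.181). On the first component Btg2 (loading 0.199) and Ccn1 (0.0985) had the sign of Egr3 (0.253), while Gadd45b (-0.230), Gadd45g (-0.139), Myc (-0.0683), Sik1 (-0.0645) and Maff (-0.0277) had the other. The loadings of Myc, Sik1 and Maff were small, and a difference between called members was not tested. Among single libraries, HFpEF 5 was the lowest of its group for 16 of 34 members, against 17.4% of all genes tested, and Control 4 was the lowest of its group for 11 members, against 16.7% of all genes. HFpEF 1 was the highest of its group for 11 members (25.9% of all genes) and Control 1 for 11 (16.8% of all genes).

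**Figure D5:**
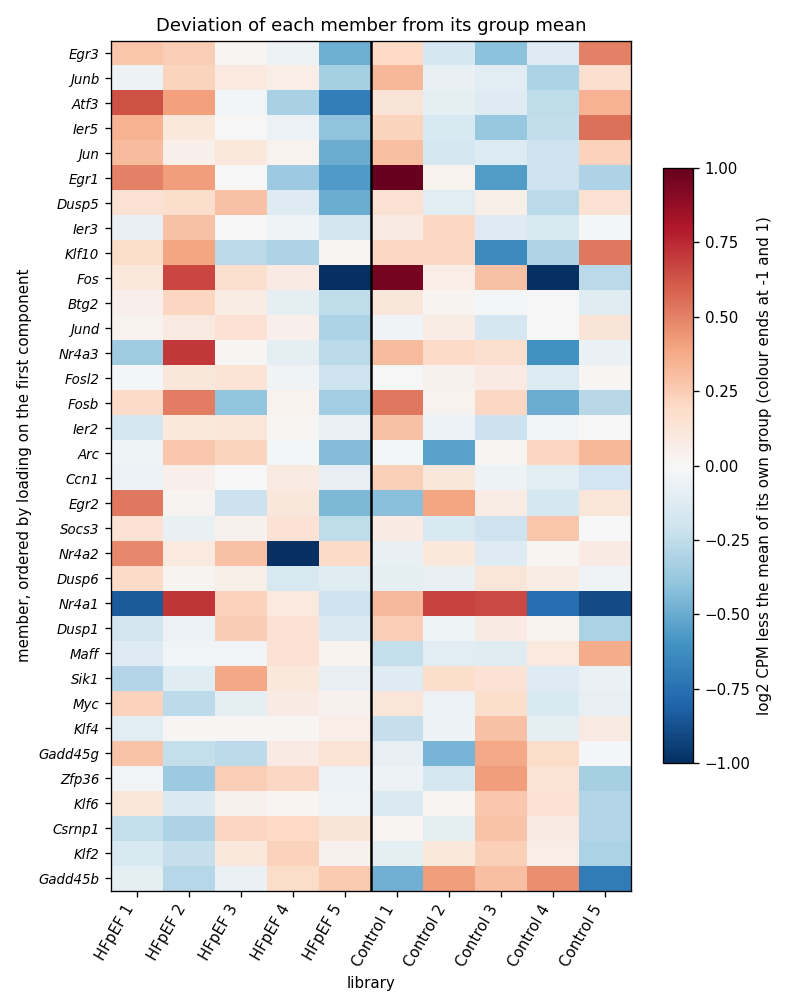
Deviation of each member from the mean of its own group in log2 CPM (colour, red above and blue below the group mean), libraries in columns with HFpEF left of Control, members in rows ordered by their loading on the first component. HFpEF 5, lowest of its group for 16 of 34 members, is blue for most upper rows, and Control 1 is dark red for Egr1 and Fos.

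The genes outside the members whose deviations were most like the mean of the members' scaled deviations, chosen as the highest of 11231 genes, were Ap3s1 (r = 0.910 over 10 libraries), Mcam (0.890), Ubald1 (0.878), Trim21 (0.875), Tbxas1 (0.864), Gpr182 (0.860), Med7 (0.856) and Tmem179b (0.849). Of these 8, Trim21 was lower in HFpEF (log2 fold change -0.37, adjusted p = 0.0299) and the others were not called. The mean they were compared with was lowest in HFpEF 5.

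The pathways around the members were read from lists. In the Ras, ERK and stress kinase cascade, the adaptor gene Grb2 was higher (0.26 ± 0.06, adjusted p = 0.0236) and Mapk12, a p38 isoform, was lower (-0.26 ± 0.07, adjusted p = 0.0318). CREB, serum response factor and ternary complex factors counted 0 called of 17 by edgeR and voom and 4 higher by DESeq2 (Crtc3, Mef2a, Mef2d and Mrtfb). At an unadjusted p below 0.05, 7 were higher and 1 lower, and their summed level was 1116 to 1157 CPM in HFpEF and 1059 to 1076 CPM in Control. MAP kinase phosphatases and ERK inhibitors outside the members held 4 called higher and 0 lower among 12 tested, as with DESeq2 and voom (4 higher and 4 lower at an unadjusted p below 0.05). Dusp8, a phosphatase of JNK and p38, had 33.4 ± 3.41 CPM in HFpEF and 22.8 ± 2.78 CPM in Control (0.54 ± 0.09, adjusted p = 0.00266). Spry1, an inhibitor of receptor tyrosine kinase signalling, rose by 0.42 ± 0.10 (adjusted p = 0.0216), Dusp16 by 0.29 ± 0.05 (adjusted p = 0.00443) and Dusp3 by 0.20 ± 0.04 (adjusted p = 0.0152).

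Among 43 other early response genes, 4 were higher and 2 lower (DESeq2, 6 and 3; voom, 3 and 0). Trib1, a pseudokinase, had 24.9 ± 2.21 CPM in HFpEF and 16.0 ± 1.82 CPM in Control (0.64 ± 0.08, adjusted p = 0.000349), and the scaffold gene Homer1 rose by 0.33 ± 0.05 (adjusted p = 0.00144). Arid5a rose by 0.31 ± 0.08 (adjusted p = 0.0404), and the chemokine gene Cxcl1 was lower (-1.04 ± 0.28, adjusted p = 0.0433). Of 11 further AP-1 and bZIP factors 1 was higher, Nfe2l1 (0.43 ± 0.06, adjusted p = 0.000739; DESeq2 called 2 and voom 1). Of 13 genes of the IL-6 and STAT3 pathway 1 was lower, Bcl3 (-0.70 ± 0.19, adjusted p = 0.0420; called by DESeq2, while voom called 0 of the list).

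Some lists that bear on the state of the animals or on other cell types moved with the groups. Of 19 circadian clock genes 2 were higher and 3 lower (DESeq2, 2 and 3, and voom, 1 and 3). Their summed level was 961 to 1013 CPM in HFpEF and 1056 to 1157 CPM in Control, without overlap. The 3 lower genes, which held much of this gap, were Nr1d1, Dbp and Ciart. Their means were 79.5, 49.1 and 5.75 CPM in HFpEF and 124, 72.9 and 13.7 CPM in Control. Of 15 glucocorticoid-responsive genes, Zbtb16 was higher (0.61 ± 0.08) and Mt2 lower (-1.63 ± 0.35). DESeq2 called 3 higher and 1 lower, and voom 2 and 1. The sums of this list were 1202 to 1385 CPM in HFpEF and 872 to 1043 CPM in Control. Zbtb16 averaged 191 CPM in HFpEF and 125 CPM in Control. Most of the gap in these sums therefore lay in genes that edgeR did not call. Of 16 heat shock genes 0 were called by edgeR and voom and 1, Dnajb4, by DESeq2, with 3 higher and 0 lower at an unadjusted p below 0.05, and their sums overlapped (1691 to 2135 CPM in HFpEF and 1730 to 2308 CPM in Control). All 10 macrophage markers were tested and 0 were called by edgeR, against 2 lower by DESeq2 and 1 by voom (0 higher and 7 lower at an unadjusted p below 0.05; sums of 123 to 162 CPM in HFpEF and 151 to 244 CPM in Control). Of 9 neutrophil markers 2 were tested and Csf3r was lower (-0.81 ± 0.22, adjusted p = 0.0479; called by DESeq2, while voom called 0 of the list), with sums of 1.10 to 1.82 CPM in HFpEF and 1.79 to 3.96 CPM in Control; none of these markers was at 0 in every library. Of 10 endothelial markers, Egfl7 and Emcn were lower (DESeq2 called both and voom Egfl7 alone), with sums of 1104 to 1290 CPM in HFpEF and 1169 to 1371 CPM in Control. Of 6 atrial markers 3 were tested and Nppa was lower (-1.19 ± 0.22), and their sums were 16.2 to 30.3 CPM in HFpEF and 38.3 to 59.4 CPM in Control. Nppa alone held 14.5 to 28.4 CPM in HFpEF and 36.5 to 57.0 CPM in Control, so these sums mostly repeat that gene. Of 6 Schwann cell markers 5 were tested and 0 were called by edgeR, DESeq2 or voom (2 higher at an unadjusted p below 0.05), with sums of 32.2 to 34.4 CPM in HFpEF and 24.9 to 31.5 CPM in Control. Fibroblast, smooth muscle, lymphocyte, erythroid and skeletal muscle markers held 0 called by edgeR and voom and overlapping sums, while DESeq2 called the fibroblast marker Lum higher. Of 7 adipocyte markers 0 were tested. The part of these lists in the results on the members was not tested.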

How the data were processed

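Total RNA, depleted of ribosomal RNA per the labels' protocols, was measured in 10 left ventricle libraries, grouped by the labels into HFpEF and Control (5 each). The deposited values are expected counts per gene, whole numbers and not normalized; the submitters' processing notes list mm10, RSEM 1.2.15 and Bowtie2 2.1.0 but give them no role, and the annotation release and strand are not given in the sources used here. RSEM divides reads that match several transcripts, so counts of related genes are estimates; rounding changed none of the values, and the 92 ERCC rows held 0 counts and were left out. Identifiers were matched without version to GENCODE M21 (55144 of 55385 genes, all 34 members) for coordinates and lengths.

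Genes were kept by filterByExpr (minimum count 10) and tested by the robust quasi-likelihood method of edgeR 4.0.16 in R 4.3.3, after TMM scaling, in a model that held only the group. P-values were adjusted by Benjamini-Hochberg over 18491 genes, and each SE is the fold change over the root of its F. Co-variation used log2 CPM (prior count 2) less the group mean. The fit was tested on simulated data. Alternatives were RLE and upper quartile scaling, no filter and CPM of at least 1 in at least 5 libraries, DESeq2 1.42.0, voom (limma 3.58.1), a replicate block, leaving out each library and, added after the data had been seen, leaving out Control 4 and Control 5. No libraries were merged, since chi-square per degree of freedom was 4.61 to 25.9 between libraries of 1 group.

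All members were reported, with up to 4 called genes of each companion list, or the smallest p where none was called, and the 8 genes most like the members' mean. Genes called by DESeq2 alone were named after their values were seen. 1 gene of the kinase cascade list, and that list's counts, are not reported here. Motifs were searched in RefSeq promoter windows. Members and lists were chosen with earlier results of these data known. Depth limits the lowest members (10 to 29 counts a library for Egr2); counts cover counting error only.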

Additional observations from a re-analysis of the deposited data

Results flagged for a closer look

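In groups of 5 libraries, 3 values stood far from the other 4 by the gap to the nearest library over the range of the group (critical value 0.71). This was examined in 70 sets of 5 values, and about 1 in 20 is flagged by chance. Egr1 in Control 1 stood at 21.2 CPM, against 7.01 to 10.6 CPM in the other Control libraries. Nr4a3 in HFpEF 2 stood at 8.07 CPM, against 3.85 to 4.96 CPM in the other HFpEF libraries. Jund in HFpEF 5 stood at 12.2 CPM, against 15.6 to 16.8 CPM in the other HFpEF libraries.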

How the results depend on the processing

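Of 610 values of single members under the alternatives, 560 kept their direction and their side of the threshold, 27 lost a call, 8 gained one and 15 changed sign. The number of members called higher was 7 with RLE, upper quartile scaling, the stricter filter and voom, 6 without a filter, 10 with DESeq2, and 3 without Control 4 and Control 5 together, where fewer samples were fitted. Leaving out each library in turn gave 3 to 7 members called higher, 0 lower, a median log2 fold change of 0.19 to 0.31, 554 to 1101 genes called of all (985 with every library, 554 without HFpEF 3, 633 without HFpEF 4 and 630 without Control 1), 16 to 32 companion list genes called, a median correlation between members of 0.0243 to 0.13 and a first component of 32.1% to 41.5%. DESeq2 called 47 genes of the companion lists, against 29 with edgeR. Over the 19 members with a mean of at least 5 CPM the median correlation was 0.17 and the first component held 40.4%. The cause of these shifts was not tested. Signs turned for Arc with upper quartile scaling (-0.0123), the stricter filter (-0.00221) and voom (-0.00991), for Fos with voom (0.0303), and for Nr4a1 (-0.12) and Klf2 (-0.00392) without Control 4 and Control 5. Without 1 library, Arc ranged from -0.10 to 0.10, Fos from -0.27 to 0.24, Jun from -0.00418 to 0.19 and Ier2 from -0.00487 to 0.12. Fosb and Egr2 gave no value under the stricter filter. Same-numbered libraries did not deviate together (correlations of -0.110 to 0.0638), and 3 of 10 libraries correlated best with their own number. No pairing by number was seen in these values, which cannot exclude that the numbers mark one. With the replicate number as a block, 744 genes and 7 members were called, Myc lost its call (adjusted p = 0.0597) and Zfp36 gained one (0.00747).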
